A study of Caenorhabditis elegans with 21 samples.

Results

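The comparison sets worms that carry both egl-9(sa307) and vhl-1(ok161) against worms that carry egl-9(sa307) alone, so the egl-9 allele is common to both groups and vhl-1(ok161) is what was added. It rests on 6 of the 21 libraries of the series, 3 titled egl-9;vhl-1 and 3 titled egl-9, chosen by their titles. All 21 libraries came from whole Caenorhabditis elegans at the young adult stage, before eggs were visible, fed OP50 bacteria, with 30 to 50 worms picked per library and SmartSeq2 used to make the cDNA. The same vhl-1 allele in an otherwise wild-type background (vhl-1(ok161) against the wild type N2, 3 libraries each) served as the reference for what loss of vhl-1 does alone, and it shares no library with the main comparison. The remaining genotypes, rhy-1(ok1402), hif-1(ia4) and egl-9(sa307) hif-1(ia4), entered the fit to estimate the spread between libraries. The series title presents a genetic analysis of a pathway by its transcriptomes, and the question of this pair is what the loss of VHL-1 changes in worms that already lack EGL-9.

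EGL-9 and VHL-1 act one after the other on the hypoxia-inducible factor HIF-1. EGL-9 is a dioxygenase that hydroxylates a proline of HIF-1 when oxygen is present, and VHL-1 is the substrate receptor of a CUL-2 ubiquitin ligase that binds hydroxylated HIF-1 and sends it to the proteasome. In C. elegans, EGL-9 is also known to restrain HIF-1 activity by a route that does not need VHL-1, and VHL-1 is known for effects on extracellular matrix.

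The 6 libraries held 7329864 to 10078623 estimated counts and between 15543 and 16009 genes with a count. Levels are given as CPM, the counts scaled to a common library size with TMM factors, and changes as log2 fold changes of egl-9;vhl-1 over egl-9 with a standard error derived from the test. A gene was called where edgeR's quasi-likelihood test gave a Benjamini-Hochberg adjusted p below 0.05 over the 13043 tested genes. Whether a genotype's 3 libraries stem from separate cultures is not said in the labels, so p-values measure the spread between these samples only. RNA came from whole worms, so fewer cells of a type and less RNA per cell cannot be told apart in any result.

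The vhl-1 transcript bore out the titles. It had 12, 15 and 18 counts in the egl-9 libraries and 0 in all 3 egl-9;vhl-1 libraries, which is at least 16.3-fold lower when 3 counts over the group are taken as the floor. The egl-9 transcript itself was present in both groups, at 89.5, 89.1 and 104 CPM in egl-9 and 102, 123 and 104 CPM in egl-9;vhl-1. Its change was 0.22 ± 0.09 (edgeR adjusted p = 0.17), and since counts were summed over the whole gene, they do not check the egl-9 label.

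Many more genes were called lower than higher in egl-9;vhl-1 against egl-9. Of the 13043 genes, 1027 were called (7.87%), 227 of them higher (1.74%) and 800 lower (6.13%). The falls were also larger: the median change was −1.17 among the genes called lower and 0.49 among those called higher, beside a median of 0.01 over all tested genes. At least 2-fold changes were found in 510 of the lower and 28 of the higher genes. The first and the second principal components of all 21 libraries carried 43.3% and 17.7% of the variance. On the first, the egl-9;vhl-1 libraries (25.8 to 35.5) stood below the egl-9 libraries (55.8 to 72.4). On the second, the egl-9;vhl-1 libraries (44.96 to 60.04) stood above the egl-9 libraries (−23.7 to 15.2). The number of calls moved with single libraries. It was 222, 1789 and 403 without egl-9 replicates 1, 2 and 3, and 254, 635 and 371 without egl-9;vhl-1 replicates 1, 2 and 3. In the same order, higher genes were 52, 425, 95, 67, 100 and 74, and lower genes were 170, 1364, 308, 187, 535 and 297. Of the 1027 genes, 169 were called, in the same direction, whichever of the 6 libraries was left out (42 higher and 127 lower).

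**Figure D1:**
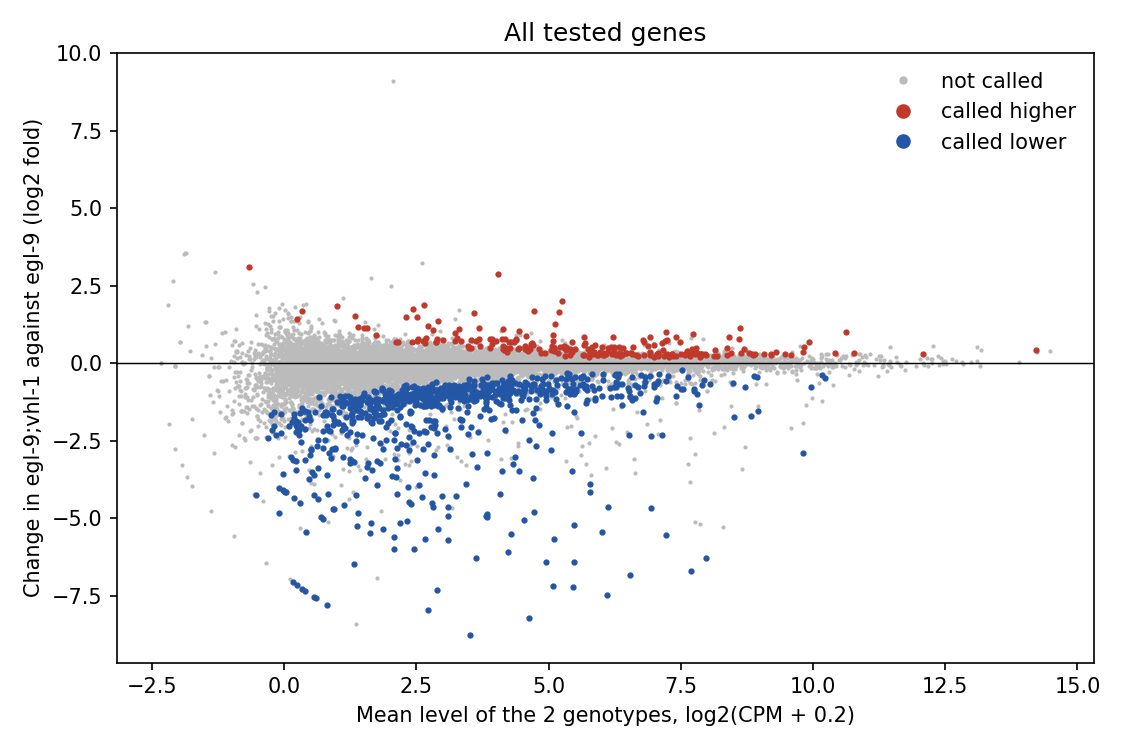
Change in egl-9;vhl-1 against egl-9 (y axis, log2 fold) by the mean level of both genotypes (x axis, log2 of CPM plus 0.2) for the 13043 tested genes, with called genes in colour. The 800 genes called lower reach much further from 0 than the 227 called higher. Fitted changes of genes with no counts in a group are not bounds.

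Where the other genotypes stood differed among the genes called lower, which is a description of genes chosen by the same contrast. In 415 of the 800, the mean in egl-9 was above that of N2, and in 220 the egl-9;vhl-1 mean lay between N2 and egl-9. In 577, the egl-9;vhl-1 mean was below that of N2 as well. In 357 of them, 2.74% of all tested genes, every egl-9;vhl-1 library was below all 18 others. In 40, every egl-9 library was above all 18 others. Among the 227 genes called higher, every egl-9;vhl-1 library was above all others in 75, and every egl-9 library below all others in 14.

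The gene lists used here and below were written from general knowledge, with earlier results of these data known. Of 15 tested genes that HIF-1 is known to induce (of 16 listed), 1 rose and 0 fell, which is 6.67% beside 7.87% of all tested genes. Their median change was 0.19, whereas 13 of the same 15 rose in vhl-1 against N2 (6.28% of all genes were called higher there), with a median of 2.11. The difference between both backgrounds was called for 13, all with the smaller change in egl-9 worms (8.52% of all genes were called for this difference in either direction). At an unadjusted p below 0.05, 5 of the 15 were higher and 1 was lower in egl-9;vhl-1, and DESeq2 called 1 higher and 0 lower. The change was above 0 in 12 of the 15. In 7, every egl-9;vhl-1 library was above every egl-9 library, as in 1448 of all 13043 tested genes.

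The nuclear hormone receptor gene nhr-57, a standard reporter of HIF-1 activity, was at 408, 367 and 504.5 CPM in egl-9 and at 394, 437 and 403 CPM in egl-9;vhl-1. The groups overlapped, and the change was −0.05 ± 0.10 (edgeR adjusted p = 0.83). The same gene went from 5.31 to 7.96 CPM in N2 to 42.8 to 50.4 CPM in vhl-1, a change of 2.81 (edgeR adjusted p = 2.5e-13). For cysl-2, which encodes a cyanoalanine synthase, the levels were 766, 730 and 659 CPM in egl-9 and 749, 698 and 757 CPM in egl-9;vhl-1, again overlapping (0.03 ± 0.10). In vhl-1 against N2, cysl-2 rose by 2.71. The gene rhy-1, whose product is a membrane protein upstream of EGL-9, was at 474, 456 and 478 CPM and at 480, 482 and 527 CPM (0.08 ± 0.08), against a rise of 1.96 in vhl-1. For rips-1, a methyltransferase-related gene the means were 24.2 CPM in N2, 1088 in vhl-1, 2654 in egl-9 and 2434 in egl-9;vhl-1. The step between egl-9 and egl-9;vhl-1 was −0.12 ± 0.11 (edgeR adjusted p = 0.56).

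The other members gave changes between −0.52 and 0.99. The sulfide quinone oxidoreductase gene sqrd-1 was at 982, 1101 and 1252 CPM in egl-9 and 1321, 1437 and 1363 CPM in egl-9;vhl-1, so that the groups did not overlap, with a change of 0.31 ± 0.15 (edgeR adjusted p = 0.22). The flavin monooxygenase gene fmo-2 was at 19.1, 15.8 and 15.4 CPM in egl-9 and at 31.8, 34.1 and 34.3 CPM in egl-9;vhl-1. Its change of 0.99 ± 0.36 did not pass (edgeR adjusted p = 0.11). Its adjusted p was below the threshold without vhl-1 replicate 1 (0.048) or vhl-1 replicate 2 (0.0092). It was lowest with only the compared genotypes in the fit (edgeR adjusted p = 0.0012). The glutathione S-transferase gene gst-19, also a member, was called higher in that fit (edgeR adjusted p = 0.044) and in no other. All egl-9;vhl-1 libraries were above all egl-9 libraries for gst-19. The collagen prolyl hydroxylase gene phy-2 had the lowest change, −0.52 ± 0.20 (edgeR adjusted p = 0.13), with 182, 96.8 and 143 CPM in egl-9 against 92.7, 95.3 and 106 CPM. It was called lower without egl-9 replicate 2 (0.010) or vhl-1 replicate 2 (0.043). The persulfide dioxygenase gene ethe-1 changed by 0.30 ± 0.10 (edgeR adjusted p = 0.060), and it was called without egl-9 replicate 2 (0.016). The gene that rose was cysl-3, a cysteine synthase-like gene, from 36.2, 41.5 and 32.5 CPM to 46.6, 45.7 and 55.3 CPM (0.42 ± 0.13, edgeR adjusted p = 0.044). Its call was lost without egl-9 replicate 1 (0.16) or 3 (0.19) and without egl-9;vhl-1 replicate 1 (0.092), 2 (0.069) or 3 (0.21). It was also lost without N2 replicate 2, rhy-1 replicate 1 or 2, hif-1 replicate 2 or 3, or egl-9 hif-1 replicate 1 or 2 (0.050 to 0.060), so the count of raised targets was 0 in those fits and 2 without egl-9 replicate 2, vhl-1 replicate 1 or vhl-1 replicate 2.

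Summed over the list, the targets were at 6145, 6258 and 6848 CPM in the egl-9 libraries and 6617, 6834 and 6553 CPM in the egl-9;vhl-1 libraries, so the groups overlapped. Averaged on the log scale, relative to N2, they were at 3.82, 3.81 and 3.92 in egl-9 and 4.03, 4.05 and 4.07 in egl-9;vhl-1, which did not overlap. In vhl-1 the same averages were 2.43, 2.77 and 2.57.

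**Figure D2:**
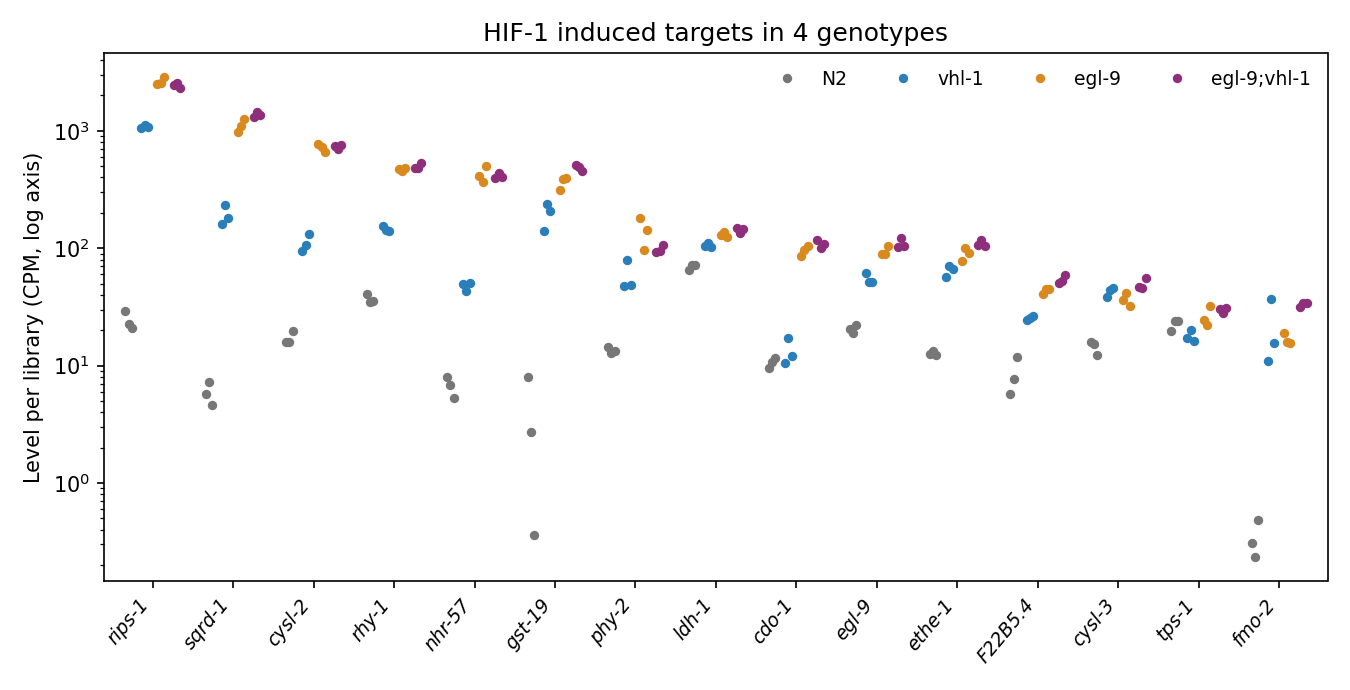
Level of each of the 15 tested HIF-1 induced genes (x axis) in every library of 4 genotypes (y axis, CPM on a log axis, 1 point per library). For most genes the egl-9 and egl-9;vhl-1 points lie together and above those of vhl-1 and N2, with nhr-57 at 367 to 504.5 CPM in egl-9 and 394 to 437 CPM in egl-9;vhl-1.

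Of 8 tested genes of the HIF-1 pathway, vhl-1 itself was the 1 called. The hif-1 transcript was at a mean of 96.2 CPM in egl-9 and 95.4 in egl-9;vhl-1 (−0.01 ± 0.11), and cysl-1, which binds EGL-9 and blocks it, was at 110 and 124 CPM (0.17 ± 0.11, edgeR adjusted p = 0.40). Among 13 tested genes of the CUL-2 ubiquitin ligase and its modifiers, edgeR called 0, DESeq2 called 0, and 2 were higher and 0 lower at an unadjusted p below 0.05.

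Sulfide, cysteine and iron genes were called about as often as all genes, at 9.52% and 6.67% beside 7.87%. Among 21 genes that handle sulfide and cysteine, 2 rose and 0 fell, with a median of 0.03 (DESeq2 called 1 higher and 2 lower). They were cysl-3 and mpst-7, a sulfurtransferase gene that went from 4.27, 3.99 and 4.09 CPM to 6.87, 7.62 and 6.66 CPM (0.77 ± 0.24, edgeR adjusted p = 0.049). The call of mpst-7 was lost without any 1 of the 6 libraries (0.073 to 0.16), and also without N2 replicate 2 or 3, rhy-1 replicate 1 or 3, vhl-1 replicate 1, hif-1 replicate 3 or egl-9 hif-1 replicate 1 or 2 (0.050 to 0.062). The sulfurtransferase gene mpst-3, raised 2.58 in vhl-1 against N2, was at 573, 681 and 772 CPM in egl-9 and 699, 663 and 669 CPM in egl-9;vhl-1, with a change of 0.00 ± 0.10. Of 15 iron and heme genes, 1 rose and 0 fell (2 were lower at an unadjusted p below 0.05, and DESeq2 called 2 lower). It was aco-1, an aconitase and iron regulatory protein homologue (195 ± 24 to 242 ± 5.0 CPM, SD, n = 3, change 0.31 ± 0.09, edgeR adjusted p = 0.031), and this call stood in 1 of the 6 fits without 1 library (0.0058 to 0.17). The ferritin gene ftn-1, whose change in vhl-1 against N2 was −2.96, was at 287, 233 and 277 CPM in egl-9 and 175, 194 and 227 CPM in egl-9;vhl-1, without overlap but not called (−0.42 ± 0.20, edgeR adjusted p = 0.23). The other ferritin gene, ftn-2, was at means of 1271 CPM in egl-9 and 1276 CPM in egl-9;vhl-1 (0.01 ± 0.10). The metal transporter gene smf-3 had 353, 451 and 279 counts in the vhl-1 libraries and 16 to 19 in N2. It had 0 counts in all 3 egl-9 libraries and 1, 2 and 1 in egl-9;vhl-1.

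Genes of the cuticle and of molting were among those called lower. The cuticle is the collagen-rich matrix that the epidermis makes anew at each molt. Over all tested genes, 6.13% were called lower and 1.74% higher. Of 134 tested cuticle collagens, 32 fell and 1 rose, with a median of −1.16. In 31 of the 32, the egl-9 mean was above N2. In vhl-1 against N2 the same list had 13 higher and 8 lower, with a median of 0.91. Of 30 Hedgehog-related genes, which encode secreted proteins made largely by the epidermis, 8 fell and 0 rose, with a median of −1.53 (3 were higher at an unadjusted p below 0.05, and DESeq2 called 0 higher). Of 45 genes of molting and the apical matrix, 9 fell and 1 rose, with a median of −0.16. In all, 49 of the 208 genes in these 3 lists fell (23.6%, beside 6.13% of all tested genes). Of the 49, 47 fell at least 2-fold, of 510 such falls over all genes. The 49 make up 6.12% of all genes called lower. Setting genes without counts at the bound that 3 counts give left these medians as they were.

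Levels differed between libraries of a genotype. Relative to N2, the mean log2 level of the collagens was 3.23, 2.63 and 3.14 in egl-9, 1.05, 1.48 and 1.44 in egl-9;vhl-1, and 0.60, 2.17 and −0.12 in vhl-1. All egl-9 libraries were above all egl-9;vhl-1 libraries, and vhl-1 replicate 2 stood above both other vhl-1 libraries. The Hedgehog-related list was at 3.06, 2.09 and 1.64 in egl-9 and 0.32, 0.92 and 0.75 in egl-9;vhl-1. For the molting list the groups overlapped, at 1.801, 1.11 and 1.05 in egl-9 and 0.39, 1.33 and 0.48 in egl-9;vhl-1. Summed, the molting genes were at 756 to 1025 CPM in egl-9 and 691 to 910 CPM in egl-9;vhl-1, with no member at 0 counts in either group. These genes peak before the last molt, and the part of the worms' stage in the cuticle result was not tested.

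Among the collagens whose call stood without each of the 6 libraries in turn, col-76 was at 8.54, 5.05 and 8.65 CPM in egl-9 and 2.2, 2.71 and 2.69 CPM in egl-9;vhl-1 (−1.54 ± 0.26, edgeR adjusted p = 0.0014). Its N2 libraries were at 7.44, 6.71 and 8.45 CPM, so unlike most collagens that fell, its egl-9 mean was not above N2. For col-115 the levels were 8.43, 5.58 and 11.5 CPM against 0, 0.30 and 0.32 CPM (−5.16 ± 0.86). For col-90 they were 33.7, 18.9 and 55.4 CPM against 2.34, 3.31 and 5.70 CPM (−3.23 ± 0.57), and for col-154 176, 76.6 and 207 CPM against 24.6, 25.2 and 42.7 CPM (−2.31 ± 0.42). In these 4 genes no library of one group reached into the other. The same held for nas-36, an astacin protease gene needed for molting, at 13.3, 7.71 and 20.9 CPM in egl-9 and 2.34, 3.11 and 2.79 CPM in egl-9;vhl-1 (−2.34 ± 0.43, edgeR adjusted p = 0.0044). The patched-related gene ptr-1 changed by −2.08 ± 0.38 and the warthog-family gene wrt-9 by −2.08 ± 0.38. The ground-like gene grl-27 had 16, 10 and 27 counts in egl-9 and 0 in egl-9;vhl-1, at least 19.2-fold lower.

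Several cuticle and Hedgehog-related genes with large fitted falls varied widely within egl-9. The ground-like gene grl-5 was at 119, 25.3 and 2.81 CPM in egl-9 and 0.14, 0.10 and 0.21 CPM in egl-9;vhl-1 (−8.22 ± 2.03, edgeR adjusted p = 0.026). The rol-1 gene, a cuticle collagen in which mutants roll, was at 199, 77.4 and 135 CPM against 0.82, 0.80 and 0.64 CPM (−7.48 ± 1.95, edgeR adjusted p = 0.033), and in the vhl-1 libraries it was at 0.66, 129 and 0.46 CPM. The ground-like gene grl-16 was at 444, 240 and 811 CPM against 1.24, 1.60 and 16.01 CPM (−6.27 ± 1.68, edgeR adjusted p = 0.036). The collagens col-63, col-49, col-175, col-138 and col-71 and the cuticlin gene cut-2 changed by −7.22 to −5.49. Without egl-9 replicate 1 all 9 of these calls were lost (adjusted p 0.082 to 0.15), and they were also lost without any egl-9;vhl-1 replicate (0.075 to 0.14). Without egl-9 replicate 3, the calls of rol-1, grl-16, col-49, col-175, col-138, col-71 and cut-2 were lost (0.056 to 0.092). The call of grl-16 was also lost without rhy-1 replicate 2 (0.050), and that of col-71 without N2 replicate 2, rhy-1 replicate 1 or 2 or egl-9 hif-1 replicate 1 or 2 (0.051 to 0.053). By contrast, chtb-3, a gene named for a chitin-binding domain, was at 11.2, 7.45 and 12.5 CPM in egl-9 and 0.14, 0 and 0.32 CPM in egl-9;vhl-1, and its call stood in each such fit (−5.98 ± 0.76, edgeR adjusted p = 0.00015). So did those of appg-2 (−6.26 ± 1.05) and pqn-63 (−6.08 ± 0.99), genes at most at 3.98 CPM in N2.

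The counts of these lists moved with the libraries. The calls that stood without each of the 6 libraries were 5 in the collagens, 2 in the Hedgehog-related and 2 in the molting list. Collagens called lower were 8, 50 and 14 without egl-9 replicates 1, 2 and 3, and 6, 9 and 15 without egl-9;vhl-1 replicates 1, 2 and 3. Hedgehog-related genes called lower were 2 without egl-9 replicate 1 and 2, 2 and 4 without egl-9;vhl-1 replicates 1, 2 and 3. Molting genes were 2 and 14 without egl-9 replicates 1 and 2, and 2 and 4 without egl-9;vhl-1 replicates 1 and 3.

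**Figure D3:**
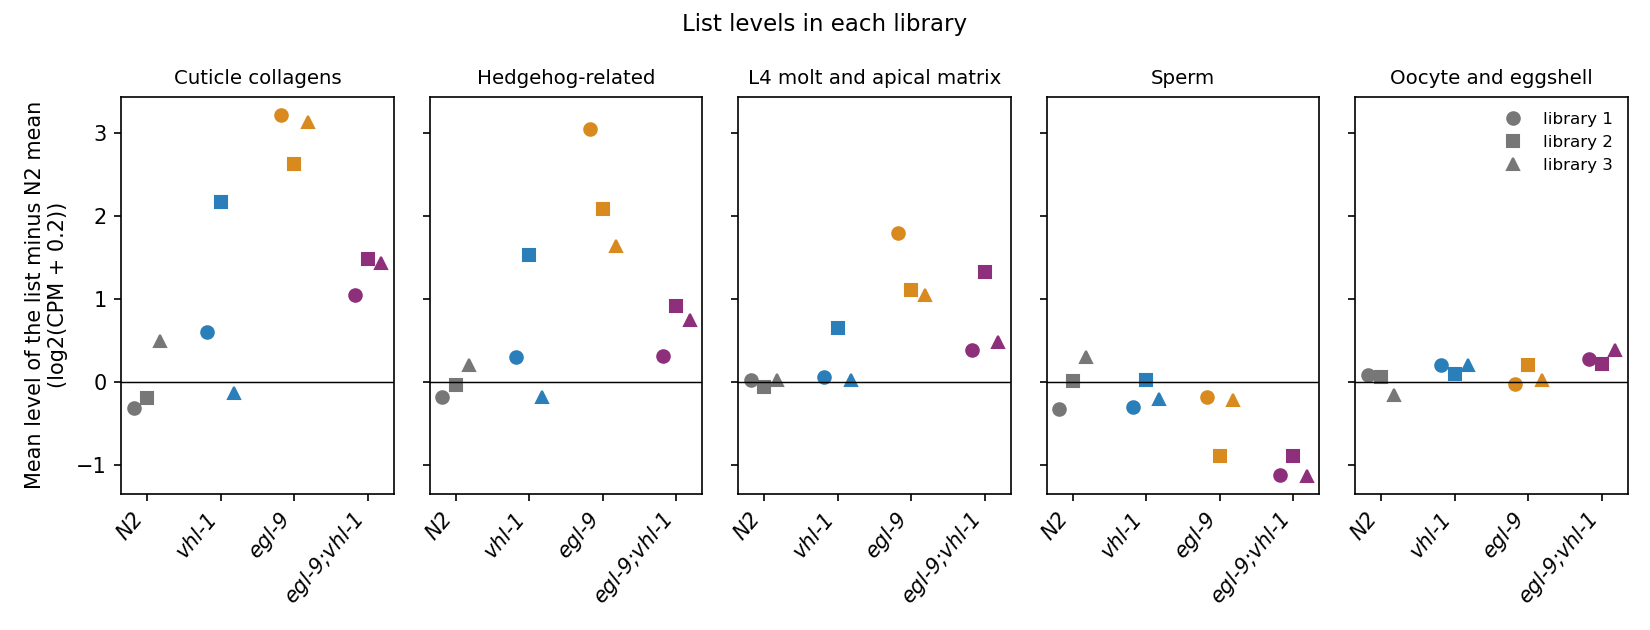
Mean log2 level of 5 gene lists in each library of 4 genotypes relative to the N2 mean (y axis, log2 of CPM plus 0.2), with 1 symbol per library number, which does not pair libraries. Collagens were at 2.63 to 3.23 in egl-9 and 1.05 to 1.48 in egl-9;vhl-1. Sperm genes were lowest in the egl-9;vhl-1 libraries and egl-9 replicate 2.

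Calls in the sperm list were all lower and those in the oocyte list all higher, and 0 of either list's calls stood without each of the 6 libraries in turn. The sperm list holds the major sperm proteins, which form the cytoskeleton of the crawling sperm, and other genes made during spermatogenesis. Of 48 tested genes, 11 fell and 0 rose, which is 22.9% beside 6.13% of all tested genes called lower. The median was −0.63, and the fitted change was below 0 in all but 1 (0 were higher at an unadjusted p below 0.05 or by DESeq2). In all 11, every egl-9;vhl-1 library was below all 18 others. The sperm phosphatase gene gsp-3 was at 166, 92.1 and 160 CPM in egl-9 and 63.5, 83.4 and 67.3 CPM in egl-9;vhl-1 (−0.96 ± 0.23, edgeR adjusted p = 0.021). For spe-11, a gene for a paternal factor that the embryo needs, the levels were 25.5, 14.8 and 25.1 CPM against 11.8, 13.3 and 12.4 CPM (−0.80 ± 0.20, edgeR adjusted p = 0.018). In both genes egl-9 replicate 2 lay closest to egl-9;vhl-1. The sperm-specific gene ssp-35 changed by −1.01 ± 0.25 and the major sperm protein gene msp-64 by −0.77 ± 0.21. The calls of these 4 genes were lost without egl-9 replicate 1 (0.12 to 0.17), egl-9 replicate 3 (0.053 to 0.096) or egl-9;vhl-1 replicate 3 (0.067 to 0.11). Those of gsp-3, spe-11 and ssp-35 were also lost without egl-9;vhl-1 replicate 1 (0.078 to 0.090), and that of msp-64 without replicate 2 (0.078). Major sperm protein genes are near-identical copies, so the split of reads among them is uncertain.

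Summed over the list, sperm genes were at 5460, 3559 and 5627 CPM in the egl-9 libraries and at 2919, 3570 and 3003 CPM in the egl-9;vhl-1 libraries. The sum of egl-9 replicate 2 was thus inside the egl-9;vhl-1 range, while the N2 libraries were at 5052 to 7782 CPM and the vhl-1 libraries at 5310 to 6499 CPM. The number of sperm genes called was 0, 38 and 0 without egl-9 replicates 1, 2 and 3, and 1, 6 and 0 without egl-9;vhl-1 replicates 1, 2 and 3. It was 18 and 5 without N2 replicates 1 and 2, 7 without rhy-1 replicate 2 or 3, and 21 without hif-1 replicate 1. At an unadjusted p below 0.05, 41 of the 48 were lower, and DESeq2 called 24. In vhl-1 against N2, 0 were called by edgeR in either direction (median −0.19), and the difference between the backgrounds was called for 0 sperm genes, so the fall is not shown to be larger in egl-9 worms.

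Of 31 oocyte and eggshell genes, 7 rose and 0 fell, which is 22.6% beside 1.74% of all tested genes called higher. The median was 0.25 (0 were lower at an unadjusted p below 0.05 or by DESeq2). Examples were oma-1, needed for oocyte maturation (197, 238 and 207 CPM to 262, 256 and 281 CPM, 0.32 ± 0.08, edgeR adjusted p = 0.019) and cpg-3, a chondroitin proteoglycan gene of the eggshell layer (1415, 1634 and 1555 CPM to 1933, 1949 and 1971 CPM, 0.35 ± 0.09, edgeR adjusted p = 0.021). Both calls were lost without egl-9 replicate 1 (0.14 each) or 3 (0.075 and 0.058) and without egl-9;vhl-1 replicate 1 (0.061 and 0.071) or 3 (0.092 and 0.070), that of cpg-3 also without egl-9;vhl-1 replicate 2 (0.062). The list's count was 0, 16 and 0 without egl-9 replicates 1, 2 and 3, and 0, 1 and 0 without egl-9;vhl-1 replicates 1, 2 and 3. It was 3 without rhy-1 replicate 2, hif-1 replicate 2 or 3 or egl-9 hif-1 replicate 1, 4 without vhl-1 replicate 1, and 2 without egl-9 hif-1 replicate 2. With size factors of another method (RLE), 3 were called. The 7 rises lay between 0.28 and 0.37. Summed, oocyte genes were at 16370 to 19350 CPM in egl-9 and 20710 to 22310 CPM in egl-9;vhl-1, with no member at 0 counts. The part of the make-up of the gonad in the sperm and oocyte values was not tested.

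The chromosomes of the 357 genes whose egl-9;vhl-1 libraries were all below all others were counted after the values had been seen. The X chromosome held 10 of them, 2.80%, although 13.3% of all tested genes lie on X. Chromosome IV held 100 (28% against 17.5% of tested genes) and chromosome I held 83 (23.2% against 16.7%). Of the 800 genes called lower, 88 lie on X. The sperm list holds 11 of the 357. In C. elegans, genes expressed in sperm are known to be rare on X. Whether such genes account for the low share of the 357 on X was not tested.

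Enzymes of lipid metabolism included several rises. Of 102 tested genes for desaturases, elongases, acyl-CoA synthetases and beta-oxidation, 9 rose and 6 fell, beside 1.74% of all tested genes called higher and 6.13% called lower, so the falls were near the share over all genes. The median was −0.05, and 8 of the 15 calls stood without each of the 6 libraries. The elongase gene elo-5 was at 948, 1215 and 988 CPM in egl-9 and 2103, 2142 and 2082 CPM in egl-9;vhl-1 (1.01 ± 0.12, edgeR adjusted p = 2.8e-05). It was at 894 to 1196 CPM in vhl-1 and 990 to 1265 CPM in N2, and its change in egl-9 worms differed from that in N2 worms (edgeR adjusted p of the difference = 0.00014). The acyl-CoA synthetase gene acs-1 was at 221, 297 and 222 CPM in egl-9 and 560, 558 and 512 CPM in egl-9;vhl-1 (1.14 ± 0.15, edgeR adjusted p = 0.00025). The elongase gene elo-6 was at 105, 136 and 98.1 CPM and 200, 182 and 187 CPM (0.75 ± 0.10, edgeR adjusted p = 0.00013). The products of elo-5, elo-6 and acs-1 are known to act on monomethyl branched-chain fatty acids. In each of the 3 genes no egl-9 library reached the lowest egl-9;vhl-1 library.

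Both acs-1 and elo-6 went the other way when vhl-1 was lost alone. They fell by 0.82 and 0.94 in vhl-1 against N2, and the difference between backgrounds was 1.96 ± 0.22 and 1.69 ± 0.14 (edgeR adjusted p = 6.9e-06 and 4.5e-08). The hydroxyacyl-CoA dehydrogenase gene hacd-1 had that pattern too, at means of 40.2 CPM in N2, 21.98 in vhl-1, 20.2 in egl-9 and 49.3 in egl-9;vhl-1 (1.29 ± 0.20 in egl-9 worms, −0.87 in N2 worms). The short-chain dehydrogenase gene dhs-25 was at 501.8, 292, 144 and 277 CPM in the same order (0.94 ± 0.17 and −0.78). The related gene dhs-23 moved oppositely, from 11.04, 10.4 and 12.28 CPM in egl-9 to 2.61, 3.41 and 2.47 CPM in egl-9;vhl-1 (−1.98 ± 0.23, edgeR adjusted p = 2.4e-05), whereas it rose by 0.99 in vhl-1 against N2.

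Of 45 immune effectors, 2 rose and 4 fell (median −0.02), and of 107 C-type lectins, 6 rose and 8 fell (median −0.02). Falls in these and the next 3 lists were near the 6.13% of all tested genes called lower, so single genes are described. Rises were above the 1.74% called higher in the lectins, immune effectors and P450 genes, though the last 2 lists held only 2 each. The lectin gene clec-166 rose from 13.2, 16.5 and 13.3 CPM to 23.9, 21.4 and 24.1 CPM, and its call stood without each of the 6 libraries. The infection response gene irg-4 was at 652, 851 and 729 CPM in egl-9 and 202, 266 and 294 CPM in egl-9;vhl-1 (−1.55 ± 0.17, edgeR adjusted p = 4.6e-05). For irg-5 the levels were 60.9, 81.8 and 77.1 CPM and 26.5, 31.5 and 38.3 CPM (−1.19 ± 0.18, edgeR adjusted p = 0.00054). Both remained above N2, which was at 119 to 134 CPM for irg-4 and 7.12 to 13.02 CPM for irg-5. Both had risen in vhl-1 against N2, by 1.44 and 1.33. The gene dod-24 fell from 1257, 1265 and 1387 CPM to 995, 1011 and 1017 CPM (−0.37 ± 0.10, edgeR adjusted p = 0.028), a call that was lost without egl-9 replicate 1 (0.077) or 3 (0.11) and without egl-9;vhl-1 replicate 1 (0.10), 2 (0.054) or 3 (0.080).

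Of 52 cytochrome P450 genes, 2 rose and 5 fell (median 0.05), and of 60 UDP-glucuronosyltransferase genes, 1 rose and 5 fell (median −0.08). The P450 gene cyp-35A3 was at 8.54, 5.18 and 12.2 CPM in egl-9, 1.24, 2.21 and 2.15 CPM in egl-9;vhl-1 and 52.2 to 72.3 CPM in N2 (−2.18 ± 0.37, edgeR adjusted p = 0.0030). The glucuronosyltransferase gene ugt-30 was at 13.2, 14.4 and 18.1 CPM in egl-9 and 5.09, 4.41 and 3.65 CPM in egl-9;vhl-1 (−1.80 ± 0.23, edgeR adjusted p = 0.00010), and ugt-1 fell from a mean of 50.98 to 20.7 CPM (−1.31 ± 0.24). Of 34 glutathione S-transferase genes, 2 fell and 0 rose (0 were higher at an unadjusted p below 0.05 or by DESeq2). One of them, gst-5, was at 38.5 ± 6.1 CPM in egl-9 and 24.6 ± 0.90 CPM in egl-9;vhl-1 (SD, n = 3, −0.65 ± 0.13, edgeR adjusted p = 0.0053). The aspartyl protease gene asp-14 was at 224, 265 and 197 CPM and 105, 111 and 116 CPM (−1.04 ± 0.12, edgeR adjusted p = 2.8e-05). It had risen by 0.47 in vhl-1 against N2. In each of these genes the groups did not overlap, and their calls stood without each of the 6 libraries in turn.

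Of 31 genes of glycolysis and sugar storage, 4 rose and 0 fell, which is 12.9% beside 1.74% of all tested genes called higher. The median was 0.17 (2 were lower at an unadjusted p below 0.05, and DESeq2 called 5 higher and 0 lower). The trehalase gene tre-2 rose from 85.9, 103 and 98.2 CPM to 135, 134 and 152 CPM (0.55 ± 0.11, edgeR adjusted p = 0.0040), a call that stood without each of the 6 libraries. The call of fbp-1 stood in 5 of these 6 fits. Those of gpi-1 and hxk-2 stood in 1 of the 6 each (edgeR adjusted p up to 0.21 and 0.11). Further lists that held calls are not described here. Some lists held no call, beside 7.87% over all tested genes, and those of 24 or fewer genes are too short to read anything from it. EdgeR called 0 of 69 cytosolic ribosomal protein genes (median −0.11), 0 of 45 respiratory chain and ATP synthase genes (0.05), 0 of 60 heat shock and chaperone genes (0.07), 0 of 24 neuronal, 0 of 24 muscle and 0 of 15 intestinal genes. DESeq2 called 3 muscle genes lower and 0 in the other 5 lists. At an unadjusted p below 0.05, 4 ribosomal, 1 neuronal, 5 muscle and 2 intestinal genes were lower, and 2 respiratory chain, 5 heat shock and 1 intestinal genes were higher.

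The largest rises were single genes of several functions. The gene T09B9.4 was at 3.68, 4.52 and 3.51 CPM in egl-9 and 26.7, 27.3 and 31.6 CPM in egl-9;vhl-1 (2.87 ± 0.14, edgeR adjusted p = 7.2e-12). Its level in the other 15 libraries was 22.6 to 33.9 CPM, including egl-9 hif-1 at 28.3 to 33.9 CPM, so the egl-9 libraries stood apart from all others. For C25H3.11 it was the egl-9;vhl-1 libraries that stood apart, at 58.8, 62.9 and 59.97 CPM against 14.2, 16.8 and 14.4 CPM in egl-9 and 8.003 to 17.3 CPM in all 18 others (2.00 ± 0.17, edgeR adjusted p = 3.1e-07). The same was true of cls-3, a CLASP-family microtubule regulator gene, at 20.9, 18.9 and 13.97 CPM against 6.77, 4.92 and 5.73 CPM in egl-9 (1.62 ± 0.23, edgeR adjusted p = 0.00025). The gene spat-3, which encodes a Polycomb-type RING protein, rose from 75.1, 97.2 and 85.1 CPM to 138, 176 and 148 CPM (0.85 ± 0.11, edgeR adjusted p = 0.00011). The cilium gene dyf-3 was at 14.7, 11.2 and 11.2 CPM and 46.1, 40.98 and 32.1 CPM (1.68 ± 0.24, edgeR adjusted p = 0.00033), and it also rose in vhl-1 against N2 (1.88, from a mean of 2.98 to 10.96 CPM). It was at 39.8 to 51.05 CPM in rhy-1.

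Most calls made for vhl-1(ok161) in N2 worms were not made in egl-9 worms. In vhl-1 against N2, 1591 genes were called (12.2%), 819 higher and 772 lower (5.92%). Of these, 162 were also called in egl-9;vhl-1 against egl-9, which is 10.2% of the vhl-1 calls, beside 7.87% of all tested genes. The 162 are 15.8% of the calls made in egl-9 worms, beside the 12.2% of all tested genes called in vhl-1 against N2. Among the 162, 90 went in the same direction (60 higher, 30 lower) and 72 in opposite directions. The 60 are of 819 genes called higher in vhl-1, which is above the 1.74% of all tested genes called higher in egl-9;vhl-1. The 30 are of 772 called lower in vhl-1, which is below the 6.13% of all tested genes called lower in egl-9;vhl-1. In 53 of the 72, the gene was higher in vhl-1 than in N2 and lower in egl-9;vhl-1 than in egl-9, as for irg-4, irg-5, dhs-23, F43H9.4 and the flippase gene tat-2. The other 19 were lower in vhl-1 and higher in egl-9;vhl-1, as for acs-1, elo-6 and hacd-1. The 53 are of the 819 genes higher in vhl-1, beside 6.13% of all tested genes called lower in egl-9;vhl-1. The 19 are of the 772 lower in vhl-1, beside 1.74% of all tested genes called higher. Both counts are near these shares. The difference was called for 72 of the 72 opposite genes and 9 of the 90 others, which is a description, since the choice of the 72 by opposite calls largely fixes it. Over all genes the difference was called for 1111, and for 645 without vhl-1 replicate 2, the library with the high collagen levels. The calls in vhl-1 against N2 were 965 without N2 replicate 2, and 940 and 1057 without vhl-1 replicates 1 and 2.

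The counts of shared calls were small and moved with the libraries. Genes in opposite directions were 28 and 32 without egl-9 replicates 1 and 3, 18, 34 and 28 without egl-9;vhl-1 replicates 1, 2 and 3, 32 without N2 replicate 2, and 47 and 121 without vhl-1 replicates 2 and 3. Genes in the same direction were 27, 157 and 45 without egl-9 replicates 1, 2 and 3, and 29, 47 and 35 without egl-9;vhl-1 replicates 1, 2 and 3.

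**Figure D4:**
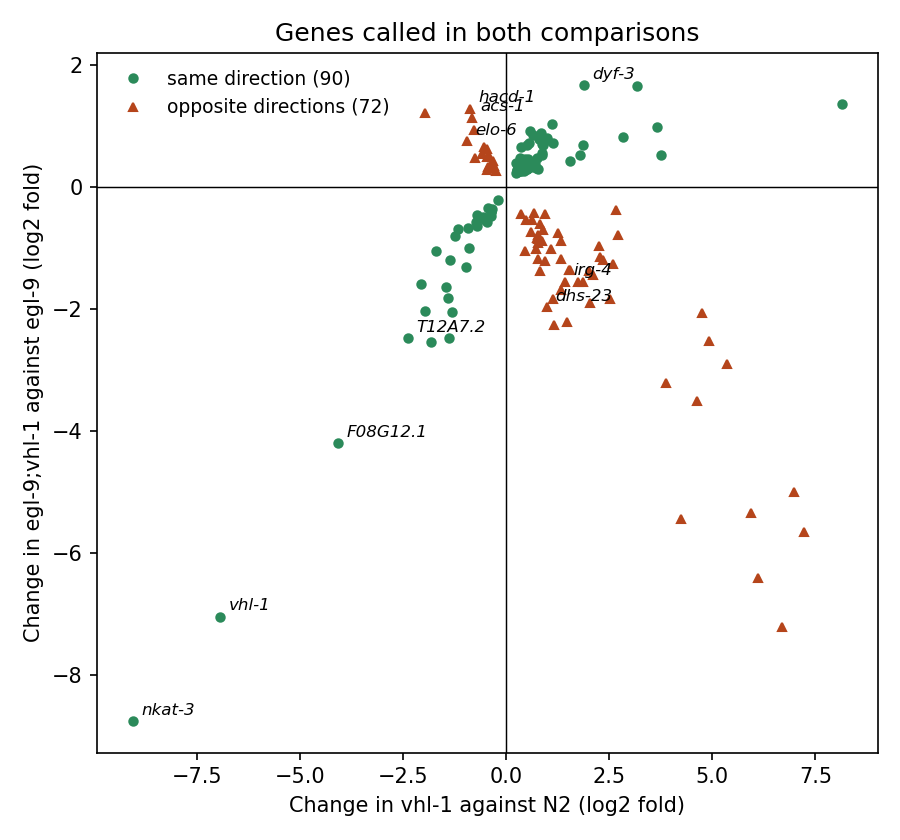
Change in vhl-1 against N2 (x axis, log2 fold) and in egl-9;vhl-1 against egl-9 (y axis, log2 fold) for the 162 genes called in both, with 90 in the same direction and 72 in opposite directions. The genes nkat-3, vhl-1, F08G12.1 and T12A7.2 are far below 0 on both axes, and irg-4 and dhs-23 lie opposite to acs-1, elo-6 and hacd-1.

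Genes lost in the same way in both backgrounds included neighbours of vhl-1 and of each other. Coordinates are those of the reference annotation (WBcel235). The gene vhl-1 lies on chromosome X at 11307356 to 11308518. Its tested neighbour F08G12.1 (X, 11302015 to 11305873) fell from a mean of 7.91 to 0.42 CPM (−4.20 ± 0.34, edgeR adjusted p = 1.4e-07), and from 11.6 to 0.67 CPM in vhl-1 against N2 (−4.08). The next tested genes on either side, F08G12.3 and hizr-1, were not called in either comparison. The kynurenine aminotransferase gene nkat-3 lies farther along X, at 15441731 to 15443630. It had 170, 178 and 199 counts in egl-9 and 1, 0 and 0 in egl-9;vhl-1, a 593-fold ratio (95% counting interval 106 to 23462.5), and in vhl-1 it had 1, 0 and 0 counts against 225 to 254 in N2. Its neighbour R03A10.5 fell from 8.92 to 1.54 CPM (−2.55 ± 0.26) and from 6.38 to 1.79 CPM (−1.83). The gene T12A7.2 on chromosome IV fell from 6.08 to 1.07 CPM (−2.47 ± 0.25) and from 6.30 to 1.19 CPM (−2.38). In all 4 cases the 6 libraries with vhl-1(ok161) were below the other 15.

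A block of neighbouring genes near the right end of chromosome I rose together in both backgrounds. It was noticed after the values had been seen and was therefore given no test of its own. Between mtd-1 and F31C3.6 (chromosome I, 15001853 to 15058994), 14 genes were tested, of which 12 were called higher in egl-9;vhl-1 against egl-9 and 13 in vhl-1 against N2, 12 in both. The median fold was 1.73 and 1.62, and the difference between backgrounds was called for 0 of the 14. In 11 of the 14, all 6 libraries with vhl-1(ok161) were above all 15 others, a separation that 31 of all tested genes had (0.238%). Examples were the zinc transporter gene zipt-1, at 38.1, 36.7 and 34.02 CPM in egl-9 and 66.0, 63.0 and 68.1 CPM in egl-9;vhl-1 (0.86 ± 0.09, edgeR adjusted p = 3.7e-06), and the cyclophilin gene cyn-5, at 131, 112 and 119 CPM and 222, 199 and 231 CPM (0.85 ± 0.09). The genes F33H2.3 and F33H2.2 changed by 1.04 ± 0.14 and 0.80 ± 0.10. The nearest tested genes outside, tep-1 and WBGene00004677, were not called in either comparison. They changed by 0.15 and −0.05 in egl-9;vhl-1 against egl-9, and by 0.27 and 0.12 in vhl-1 against N2. For tep-1 the latter change was near the threshold (edgeR adjusted p = 0.059), with all vhl-1 libraries above all N2 libraries. The count of 12 was 9 to 12 without each of the 21 libraries. Of the 60 genes raised in both backgrounds, 24 lie on chromosome I, and 12 of those are in this block. The vhl-1 gene is on X, and the strains' other differences cannot be told apart from the vhl-1 allele in these libraries.

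**Figure D5:**
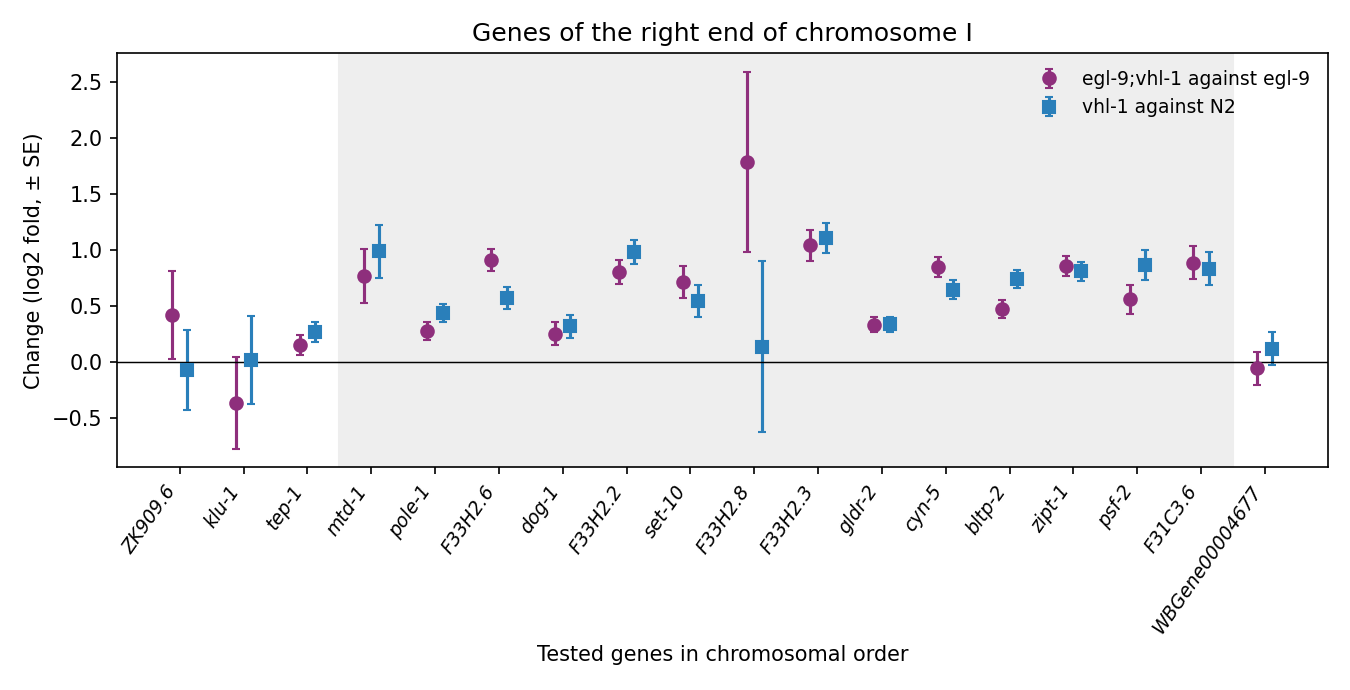
Change (y axis, log2 fold ± SE) of neighbouring tested genes at the right end of chromosome I in chromosomal order (x axis), in egl-9;vhl-1 against egl-9 and in vhl-1 against N2. The 14 genes in the shaded block lie above 0 in both comparisons, with median folds of 1.73 and 1.62. The 4 genes outside it were not called in either comparison, with tep-1 at 0.15 and 0.27.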

How the data were processed

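The authors deposited kallisto's estimated counts and TPM values for 32905 transcripts per library, with bcl2fastq 1.8.4 also named in the submitters' processing notes. The kallisto version, transcript set and genome build: not given in the sources used here. Deposited TPM values were not used in any test. Estimated counts were summed per gene and rounded, giving 22037 genes. Transcripts were matched to Ensembl 115 (WBcel235), and 307 unmatched ones (0.102 to 0.127% of a library's counts) kept their own names. All 21 libraries, grouped by their labels, were fitted together with edgeR 4.0.16 (quasi-likelihood, robust, TMM, expression filter at a minimum count of 10) in R 4.3.3, with genotype as the only term. After filtering, 13043 genes remained. Their common biological variation was 0.15 as a coefficient, and 14 degrees of freedom were left. Standard errors are the absolute change over the root of the F statistic. List levels are mean log2 values after 0.2 CPM was added. The script was tested on simulated data. The alternatives were DESeq2 1.42.0, RLE size factors, other filters, fits of only the compared genotypes, a replicate block, transcripts tested 1 by 1, each library left out, and edgeR without robust estimation, the last chosen after seeing the data.

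Named genes were the 15 largest named changes in each direction among called genes whose groups did not overlap and whose higher group averaged 10 CPM or more, the 3 largest whatever their name, all members of 4 HIF-1, sulfide and iron lists, up to 4 called members of each other list by smallest p, up to 8 genes called in both backgrounds in each of 2 ways, and up to 8 with the clearest difference between backgrounds. Genes of the chromosome blocks were added after their values were seen. The 38 lists, of which 9 entries matched no gene, and the genes were chosen with earlier results of these data known. Intervals and bounds cover counting error only.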

Additional observations from a re-analysis of the deposited data

Results flagged for a closer look

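The genes below had a different change when vhl-1 was lost in egl-9 worms than when it was lost in N2 worms, by edgeR's test of the difference itself, and each value is the first log2 change minus the second. In the genes that HIF-1 induces, the change was smaller in egl-9 worms by these differences: −5.61 for rips-1, −4.71 for sqrd-1, −2.87 for nhr-57, and −2.68 for cysl-2. The difference was also below 0 for mpst-3 (−2.58), R08E5.1 (−3.82), the gluconeogenic gene pck-1 (−2.13) and dod-24 (−3.04). Among genes called in opposite directions, the differences were −3.69 for WBGene00014955, −2.99 for irg-4, −2.97 for dhs-23, −2.52 for irg-5, −2.0998 for F43H9.4 and −1.76 for tat-2. They were 1.96 for acs-1 and 1.69 for elo-6.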

How the results depend on the processing

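Results are given as counts of calls by edgeR unless DESeq2 is named. With only the compared genotypes in the fit, 522 genes were called in egl-9;vhl-1 against egl-9 (100 higher and 422 lower), 1014 in vhl-1 against N2 and 722 for the difference, with 39 called in both in the same direction and 36 in opposite directions. That fit called 2 HIF-1 induced targets higher, fmo-2 and gst-19, while the call of cysl-3 was lost. It called 18 cuticle collagens, 3 Hedgehog-related, 4 molting and 5 sperm genes lower, and 0 oocyte genes higher. With transcripts tested 1 by 1, the same counts were 229 (55 and 174), 790, 495, 19 and 13, then 0 targets, 7 collagens, 3 Hedgehog-related, 1 molting, 1 sperm and 0 oocyte genes. DESeq2 called 124 genes in opposite directions and 24 sperm genes. Without the filter on low counts, 0 targets, 7 sperm genes and 3 oocyte genes were called, and with RLE size factors 3 oocyte genes. Without robust estimation, an alternative chosen after seeing the data, 49 collagens were called. The causes of these differences were not tested.

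The replicate numbers did not pair the libraries. Same-numbered libraries of egl-9 and egl-9;vhl-1 deviated from their group means with correlations of −0.213, −0.0405 and 0.148, and those of N2 and vhl-1 with −0.0362, −0.0539 and −0.288. With the replicate block, 985 genes were called (196 higher and 789 lower), with 2 HIF-1 induced targets and 4 oocyte genes higher.

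Leaving out each of the 21 libraries in turn gave 222 to 1789 called genes, 52 to 425 higher and 170 to 1364 lower, 940 to 1717 in vhl-1 against N2 and 645 to 1477 for the difference. Genes called in both were 27 to 157 in the same direction and 18 to 121 in opposite directions. The lists gave 0 to 2 targets, 6 to 50 collagens, 2 to 10 Hedgehog-related, 2 to 14 molting, 0 to 38 sperm and 0 to 16 oocyte genes. The 13 targets raised in vhl-1 against N2, and the 13 with a smaller change in egl-9 worms, were 13 without any library. Of 113 named genes that were called, 39 stayed called in every alternative and 74 were lost in at least 1. Of 55 not called, 8 were called in at least 1, and 0 of all named genes changed direction while called. Low counts limit the genes near 0 in egl-9;vhl-1, whose fitted changes vary with few reads.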
